A study of Mus musculus with 2 samples.

Results

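Atrial-like cardiomyocytes without Myl2 made up 145 of the 8972 cells kept from 2 Drop-seq libraries of the embryonic mouse heart region (cells with at least 400 genes detected and at most 10% mitochondrial UMIs), with 53 of 4038 cells in replicate 1 and 92 of 4934 in replicate 2. In Drop-seq a cell shares a droplet with a barcoded bead, and unique molecular identifiers (UMIs) let copies of the same captured mRNA be counted as 1. Cells were chosen by their own counts. A cell was taken when Actc1, Tnnt2, Myl7, Myl4, Tnnc1 and Tnni1, which encode cardiac actin, troponins and atrial or embryonic myosin light chains, together made at least 2% of its UMIs. It also had to carry no UMI of Myl2, the ventricular regulatory light chain, and at least 1 UMI of Sln, Stard10, Angpt1, Nr2f1 and Nr2f2 together. These 12 genes chose the cells, so their values are a description and entered no test. Both libraries came from wild-type (WT) CD1 embryos at E10.0, from which the posterior second heart field (pSHF), a mesodermal progenitor field behind the heart, and the heart tube (HT) were microdissected. Tissue of about 80 embryos was pooled for each library, the libraries were made on different days, and no mutant or treated group was analysed here. Comparisons are therefore between classes of cells from the same pools. The first sets the atrial-like cells against 29 ventricular-like cells (8 and 21), which passed the same cardiac gate and had at least 1 UMI of Myl2. Of these 29 cells, 10 (4 and 6) had a single Myl2 UMI, and 10 (5 and 5) carried a UMI of an atrial marker. The second sets the atrial-like cells against 625 SHF-gated cells (299 and 326). These fell below the cardiac gate and had at least 2 UMIs of the progenitor genes Isl1, Osr1 and Foxf1. They also met none of the erythroid, endothelial, hepatoblast, epithelial, neural and epicardial marker gates, which atrial-like cells were free to meet.

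Atrial and ventricular myocardium diverge soon after the heart tube forms. The inflow end, or venous pole, grows by addition of cells from the posterior field. Of the COUP transcription factors Nr2f1 and Nr2f2, Nr2f2 is known to uphold atrial identity there in the mouse. Atrial muscle is known for Nppa, which encodes atrial natriuretic peptide, while the sinus venosus muscle behind it, the future pacemaker region, is known for Shox2, Hcn4 and Tbx18 and for a lack of Nppa. Ventricular muscle is known for Myl2, Myh7, Myl3, the Irx genes and Hey2.

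The promoters of 3 genes are shown because the results turn on them. Nppa was among the genes higher in atrial-like cells, Myh7 was among those lower, and Shox2 was seldom found in the same atrial-like cells as Nppa. Each run covers 250 bases before and 50 after a RefSeq transcript start (GRCm38.p6) and is written 5′ to 3′ on the gene's strand. The windows are chr4:148000472-148000771 (plus strand) for Nppa, chr3:66981722-66982021 (minus strand) for Shox2 and chr14:54994500-54994799 (minus strand) for Myh7. Capitals mark matches, on either strand, to the GATA factor motif AGATAA, to the T-box factor motif AGGTGT, to the NK2 homeobox factor motif AAGTGG and to the single COUP-TF core motif AGGTCA.
Nppa: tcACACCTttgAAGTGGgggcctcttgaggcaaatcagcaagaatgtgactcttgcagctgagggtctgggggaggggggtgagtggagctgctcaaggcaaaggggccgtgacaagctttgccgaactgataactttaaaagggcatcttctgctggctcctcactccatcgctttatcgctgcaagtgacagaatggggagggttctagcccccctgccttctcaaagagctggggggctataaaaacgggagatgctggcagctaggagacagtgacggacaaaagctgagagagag
Shox2: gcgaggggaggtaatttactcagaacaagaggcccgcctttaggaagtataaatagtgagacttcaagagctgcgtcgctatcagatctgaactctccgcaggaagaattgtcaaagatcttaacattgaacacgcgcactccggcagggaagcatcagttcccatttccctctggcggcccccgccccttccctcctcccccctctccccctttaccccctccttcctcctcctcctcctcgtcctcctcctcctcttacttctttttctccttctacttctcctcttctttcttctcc
Myh7: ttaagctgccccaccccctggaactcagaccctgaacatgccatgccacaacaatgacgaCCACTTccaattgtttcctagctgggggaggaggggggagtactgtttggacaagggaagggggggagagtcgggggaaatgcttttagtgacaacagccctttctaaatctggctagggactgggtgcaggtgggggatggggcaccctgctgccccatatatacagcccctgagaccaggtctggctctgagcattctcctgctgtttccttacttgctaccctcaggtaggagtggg
The Nppa window held 1 T-box match on the opposite strand (ACACCT) and 1 NK2 match, 3 bases apart, the Myh7 window 1 NK2 match on the opposite strand (CCACTT), and the Shox2 window none of the 4 motifs. Of 32851 mouse promoters of the same length, 13.7% held the T-box letters, 16.9% the NK2 letters, 11.2% the GATA letters and 16.3% the COUP-TF letters. A match to such short letters is a description of the sequence.

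The label was only partly borne out by its markers. Sln, which encodes the atrial calcium pump regulator sarcolipin and is the best known atrial gene of the 5, had 2 UMIs in 2 atrial-like cells, both in replicate 2, and 10 UMIs in all kept cells of the series. The other markers carried the gate. Angpt1, the angiopoietin ligand for the endothelial receptor Tek, was found in 99 of the 145 cells, Nr2f2 in 89, Stard10, a lipid transfer protein gene, in 61 and Nr2f1 in 45. Only 1 of the 5 markers was seen in 54 cells, 2 in 42, 3 in 38 and 4 in 11, and no cell had all 5. In 27 cells an Nr2f gene alone admitted the cell, 38 cells had no Nr2f UMI, and 80 had both kinds of marker. Levels are given as CPM, the counts per 1000000 UMIs of a class in 1 library. As gating genes their levels in the chosen cells are raised by the choice. Values from UMIs that the gates did not use remain a description too, since the cells were still chosen by these markers. On a random part of the UMIs that the gates did not use, Angpt1 had 716 and 814 CPM in cells gated as atrial-like, against 278 and 26.7 CPM in those gated as ventricular-like. Stard10 separated the cardiac classes little there, at 149.5 and 93.2 CPM in atrial-like against 92.6 and 80.0 CPM in ventricular-like and 170.6 and 84.1 CPM in cells of the cardiac gate with neither Myl2 nor a marker. Nr2f2 had 291 and 342 CPM in atrial-like, against 92.6 and 133 CPM in ventricular-like and 396 and 332 CPM in SHF-gated cells. In cells of the cardiac gate with neither Myl2 nor a marker, Nr2f2 had 398 and 140 CPM and Angpt1 171 and 140 CPM. The ventricular-like values rest on 1 and 3 UMIs for Stard10, 3 and 1 for Angpt1 and 1 and 5 for Nr2f2. The cardiac genes took between 2.01% and 13.6% of a cell's UMIs, with a median of 5.73%. Just inside that threshold, 19 cells had 2% to 2.5%, and just outside it 24 cells met the other conditions with 1.5% to 2%. At the marker threshold, 35 cells were admitted by a single UMI, and 57 further cells of the cardiac gate had no UMI of Myl2 or of any marker. These unmarked cells were shallower, with medians of 910.5 and 1075 UMIs in replicates 1 and 2, against 2349 and 2672.5 in atrial-like and 2514.5 and 2713 in ventricular-like cells.

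Atrial-like cells were 1.31% of the kept cells of replicate 1 and 1.86% of those of replicate 2. The exact binomial 95% intervals were 0.985% to 1.71% and 1.51% to 2.28%, and cover counting error only. They held 253306 and 395976 UMIs, against 25012 and 91567 in ventricular-like and 1551830 and 1322126 in SHF-gated cells. The 5 deepest cells gave 38.4% and 22.8% of the atrial-like UMIs, 78.3% and 55.8% of the ventricular-like and 7.17% and 7.10% of the SHF-gated UMIs, so the ventricular-like levels rest on few cells. The libraries shared 82 barcodes, none of them an atrial-like cell. Scrublet's own threshold marked 0 and 1 kept cells as doublets, too few to rely on, and doublets were kept. Of the atrial-like cells, 19 also met the SHF gate, 4 the endothelial gate, 4 the epithelial gate, 1 the neural and 1 the epicardial gate, and none the erythroid or hepatoblast gate. The 19 that met the SHF gate were deep, with medians of 7974.5 and 4067 UMIs, against 2078 and 2439 in the rest.

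Markers of neural cells, macrophages and hepatoblasts were near 0 in the atrial-like cells, while those of the SHF, endothelium, mesenchyme and epicardium were present. Their part in the differences described here was not tested unless values without such cells are given. The 9 endocardial or endothelial markers summed to 118 and 126 CPM in atrial-like cells, against 40.0 and 98.3 CPM in ventricular-like and 105 and 98.3 CPM in SHF-gated cells, with Emcn at 0 UMIs in the atrial-like. The 6 epicardial markers summed to 35.5 and 202 CPM against 0 and 43.7 CPM in ventricular-like and 271 and 331 CPM in SHF-gated cells, and all 6 had a UMI. The 5 SHF markers summed to 312 and 477 CPM against 40.0 and 339 CPM in ventricular-like and 945 and 965 CPM in SHF-gated cells, with Foxf1 at 0 UMIs in the atrial-like. The 6 mesenchymal markers summed to 130 and 152 CPM against 120 and 54.6 CPM in ventricular-like and 510.4 and 609.6 CPM in SHF-gated cells, with Postn at 0. The 6 foregut endoderm markers summed to 35.5 and 85.9 CPM against 0 CPM in ventricular-like and 18.0 and 34.0 CPM in SHF-gated cells, with Nkx2-1 at 0. The 6 neural markers (4 at 0), 5 macrophage markers (3 at 0) and 4 hepatoblast markers (2 at 0) each summed to 15.2 CPM or less in the atrial-like cells. The 6 erythroid markers summed to 1232 and 1071 CPM, against 1639 and 1070 CPM in ventricular-like and 1197 and 1264 CPM in SHF-gated cells, a level shared by classes that are not blood.

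Of the 623 Nppa UMIs in all kept cells, 574, or 92.1%, lay in the atrial-like cells (92.7% in replicate 1 and 91.8% in replicate 2). This was the highest share among the 11854 genes with at least 100 UMIs in kept cells, the gating genes left out. Next came Mybphl, a myosin-binding protein gene, with 81.7%, and Nppb, the B-type natriuretic peptide gene, with 80.3%. The shares were 74.3% for Myh6, the atrial and embryonic myosin heavy chain, 60.3% for Ankrd1, a titin-associated stress gene, 51.7% for Calca, the calcitonin gene-related peptide gene, and 43.8% for Myh7. Vsnl1, a calcium sensor gene, had 38.2% of its UMIs there, the pacemaker channel gene Hcn4 25.9% and Shox2 22.0%, all above the 2.59% of all UMIs. Atrial-like cells also held most UMIs of the cardiac gate. They had 253306 and 395976, against 25012 and 91567 in ventricular-like and 14479 and 67438 in unmarked cells. A gene shared evenly by all cardiac cells would thus also have most of its UMIs here, so these shares do not separate the cardiac classes. With each cell thinned to 1000 UMIs, Nppa was detected in 17 of 48 (35.4%) and 17 of 76 (22.4%) atrial-like cells, and in 0 of 163 and 0 of 146 erythroid-gated cells, a type that should lack it. Before thinning, which left out 5 and 16 shallower atrial-like cells, it was detected in 39.6% and 28.3% of atrial-like cells, and in 0% of erythroid-gated cells. Among ventricular-like cells Nppa was detected in 4 of 8 (50%) and 2 of 21 (9.52%) before thinning, so replicate 1 lay above the atrial-like share. After thinning it was found in 2 of 8 (25%) and 2 of 20 (10%) of them. The exact binomial intervals of these thinned shares overlapped the atrial-like ones in both replicates. Detection of Nppa thus did not separate these 2 cardiac classes.

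Set against the ventricular-like cells, the atrial-like cells carried more of Nppa, of the Notch-responsive repressor gene Hey1 and of the calcium sensor gene Vsnl1, and less of the ventricular myosin heavy chain, of phospholamban and of the signals Bmp2 and Rspo3. Of 10875 genes tested, 18 were higher (0.166%) and 22 lower (0.202%) with an adjusted p below 0.05. The test was edgeR's two-sided quasi-likelihood F test on UMI sums per class and library, with Benjamini-Hochberg adjustment over all genes tested. The sums of all 11 gated classes entered 1 fit with the library as a block. The gates split these classes by Myl2 and the atrial markers, so differences in genes that travel with those may partly be set by the gates. With the gates on 1 random part of the UMIs and the test on the rest, 18 of the 40 calls were kept. At an unadjusted p under 0.05 there were 896 genes. Without the library as a block, 1 gene was higher (Nppa) and 1 lower (Bmp2), and with DESeq2's Wald test 2 were higher and 14 lower. With cardiac cells that met another gate removed, 23 of the 40 calls were kept, and Hey1, Calca, Herpud1, Pdia3, Ssr3, Srek1ip1, Osr1, Myl3, Pln, Mpped2, Cd59a, Des and Ccnd2, all described here, were among those lost. The median log2 fold change of all genes tested was 0.25, and with DESeq2's size factors in the same test it was 0.06, with 10 genes higher and 33 lower. The test was weak at this depth: in counts simulated for this comparison it recovered 13.8% of genes changed 2-fold, 38.1% of those changed 4-fold and 59.7% of those changed 8-fold, so a gene that did not pass may still differ.

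Of the 18 genes of the atrial list, 16 could be tested, and 3 were higher in atrial-like cells and none lower. The median log2 fold change of the atrial genes was 0.49, and that of all genes tested 0.25. Nppa (ENSMUSG00000041616.9; chr4:148000722-148002079, plus strand, GRCm38) stood at 896 and 876 CPM in atrial-like cells of replicates 1 and 2, against 279.9 and 54.6 CPM in ventricular-like cells. The groups did not overlap, and the ventricular-like values rest on 7 and 5 UMIs. With 2 values per class in a gene already called, lack of overlap is a description here and below and adds no support. Nppa overlaps Gm13054 on the other strand, Shox2 overlaps Rsrc1 and Myl3 overlaps Pth1r, and reads of such pairs cannot be told apart unless the counting used strand, which the labels do not state. The log2 fold change of Nppa was 3.22 ± 0.34 (SE; adjusted p = 1.64e-11). The call was lost with cells thinned to 1000 UMIs and with DESeq2's Wald test, whereas Bmp2 kept its call in all 17 alternatives in which it was tested.

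Vsnl1 (ENSMUSG00000054459.8; chr12:11325242-11436613, minus strand), which encodes the calcium sensor visinin-like 1, had 489.5 and 518 CPM in atrial-like and 119.9 and 76.4 CPM in ventricular-like cells, a log2 fold change of 2.64 ± 0.39 (adjusted p = 1.83e-06) with no overlap between the classes. It lost its call only without the block, among 18 alternatives. Hey1, a Notch-responsive repressor gene known from atrial muscle in the mouse, had 150.0 and 111 CPM in atrial-like cells, and 1 UMI in all ventricular-like cells. The ratio was 14.7 (exact 95% counting interval 2.57 to 589; adjusted p = 0.0179). Of its 38 UMIs in atrial-like cells of replicate 1, 21 lay in the 6 cells that also met the SHF gate, against 1 of 44 UMIs in the 13 such cells of replicate 2. The call was lost in 4 of 17 alternatives, which were the removal of cardiac cells that met another gate, DESeq2's size factors, DESeq2's Wald test and the fit without the block.

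The other tested members of the atrial list did not pass. Cav1, a caveola protein gene, had 98.7 and 60.6 CPM in atrial-like and 80.0 and 0 CPM in ventricular-like cells. Tbx5, the T-box factor of the inflow and left ventricle, had 166 and 207 CPM in atrial-like against 159.9 and 142 CPM in ventricular-like cells. Pam, the peptide-amidating enzyme of atrial granules, had 900.1 and 803 CPM in atrial-like against 759.6 and 743 CPM in ventricular-like cells. The light chain gene Myl1 (284 and 270.2 CPM in atrial-like against 719.7 and 197 CPM in ventricular-like cells) overlapped between the classes. Gja5, the connexin 40 gene, had 23.7 and 75.8 CPM in atrial-like cells and 0 UMIs in ventricular-like cells, at least 2.15-fold higher when 3 counts over the group serve as the floor (adjusted p = 0.32). Adm (103 and 88.4 CPM in atrial-like against 0 and 65.5 CPM in ventricular-like cells) and Gnao1 (79.0 and 63.1 CPM in atrial-like against 80.0 and 43.7 CPM in ventricular-like cells), both with positive fold changes, did not pass. Neither did Cacna2d2 (150.0 and 109 CPM in atrial-like against 239.9 and 54.6 CPM in ventricular-like cells) and Kcna5 (31.6 and 27.8 CPM in atrial-like against 0 and 21.8 CPM in ventricular-like cells), also with positive ones. Kcnj5 (35.5 and 58.1 CPM in atrial-like against 239.9 and 65.5 CPM in ventricular-like cells), Dkk3 (63.2 and 32.8 CPM in atrial-like against 239.9 and 21.8 CPM in ventricular-like cells) and Bmp10 (15.8 and 10.1 CPM in atrial-like against 40.0 and 10.9 CPM in ventricular-like cells) had negative ones. The potassium channel genes Kcnj3 and Kcnk3 had 4 UMIs each in atrial-like cells and were too low to test.

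Of the 16 tested genes of the ventricular list, 6 were lower in atrial-like cells and none higher. The median log2 fold change of these genes was -1.57, or -1.40 with genes at 0 UMIs in a class placed at their bound, and that of all genes 0.25 or 0.07. Myh7 (ENSMUSG00000053093.15; chr14:54970684-54994626, minus strand), the slow myosin heavy chain of ventricular muscle, had 1026 and 705 CPM in atrial-like and 2119 and 2752 CPM in ventricular-like cells, a log2 fold change of -1.40 ± 0.19 (adjusted p = 3.76e-07) with no overlap. Reads of Myh7 and of the overlapping antisense gene Mhrt cannot be told apart either. The light chain gene Myl3 differed less, at 2246 and 1760.2 CPM in atrial-like against 4438 and 2927 CPM in ventricular-like cells (-0.64 ± 0.14, adjusted p = 0.0104), and lost its call in 9 of 18 alternatives.

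Cited1, a transcriptional co-activator gene, had 7.90 and 12.6 CPM in atrial-like and 119.9 and 207 CPM in ventricular-like cells (-3.93 ± 0.69, adjusted p = 0.000127). Pln, which encodes the calcium pump inhibitor phospholamban, had 11.8 and 7.58 CPM in atrial-like against 159.9 and 131 CPM in ventricular-like cells (-3.71 ± 0.87, adjusted p = 0.0178). Lbh, a cardiac co-regulator gene of the limb bud and heart, had 114 and 177 CPM in atrial-like against 439.8 and 589.7 CPM in ventricular-like cells (-1.73 ± 0.30, adjusted p = 9.7e-05). Mpped2 had 39.5 and 63.1 CPM in atrial-like against 80.0 and 251 CPM in ventricular-like cells (-1.81 ± 0.45, adjusted p = 0.0387). In all 4, already called by the test, both atrial-like values lay below both ventricular-like values, which is a description. The classes were split by Myl2, and ventricular genes that travel with it may partly follow the gate. With gates and test on separate parts of the UMIs, Pln, Lbh, Mpped2 and Myl3 lost their calls, while Myh7 and Cited1 kept theirs. Of the members that did not pass, Nppb had 146 and 144 CPM in atrial-like and 119.9 and 98.3 CPM in ventricular-like cells, and Smpx 489.5 and 399 CPM in atrial-like against 959.5 and 502 CPM in ventricular-like cells. Hand1 had 3.95 and 10.1 CPM in atrial-like against 40.0 and 87.4 CPM in ventricular-like cells, and Kcne1 3.95 and 7.58 CPM in atrial-like against 40.0 and 32.8 CPM in ventricular-like cells. The connexin 43 gene Gja1 had 19.7 and 37.9 CPM in atrial-like cells and 0 UMIs in ventricular-like cells, at least 1.20-fold higher (adjusted p = 0.491). The Irx genes and Hey2 were near the floor in both classes, and Irx4, with 0 UMIs in atrial-like and 2 in ventricular-like cells, could not be tested.

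**Figure D1:**
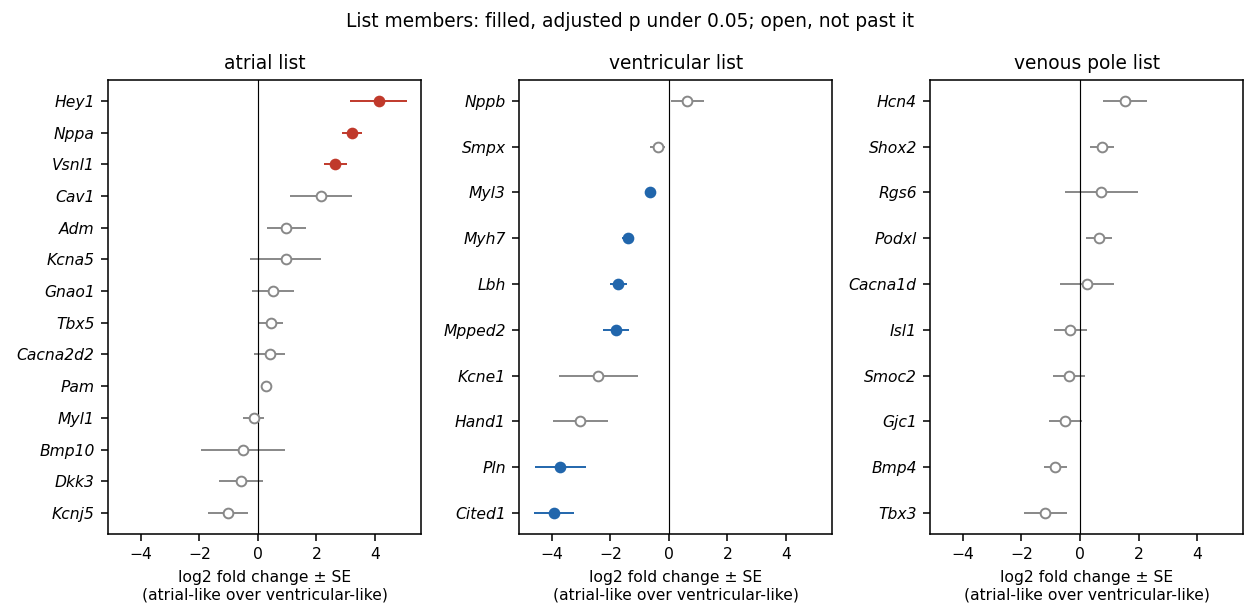
Log2 fold change (atrial-like over ventricular-like, horizontal axis) with its standard error for the members named in the text of the atrial, ventricular and venous pole lists that had at least 20 CPM in either class and a UMI in both. Filled points passed an adjusted p of 0.05: Hey1, Nppa and Vsnl1 to the right of 0, and Myl3, Myh7, Lbh, Mpped2, Pln and Cited1 to the left, while no venous pole gene passed.

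None of the 11 tested venous pole genes passed in either direction by edgeR, with 1 higher and 1 lower at an unadjusted p under 0.05 and 0 called by DESeq2. Their median log2 fold change was 0.24, and that of all genes 0.25, or 0.00 and 0.07 with genes at 0 UMIs in a class placed at their bound. Shox2, a homeobox repressor of the sinus venosus (ENSMUSG00000027833.16; chr3:66971727-66981771, minus strand), had 241 and 275 CPM in atrial-like cells, and 0 and 19 UMIs (0 and 207 CPM) in ventricular-like cells of replicates 1 and 2. Hcn4, the pacemaker channel gene (chr9:58823412-58863175, plus strand), had 98.7 and 96.0 CPM in atrial-like against 0 and 43.7 CPM in ventricular-like cells (log2 fold change 1.54 ± 0.75, adjusted p = 0.603). Bmp4 had 90.8 and 212 CPM in atrial-like and 0 and 426 CPM in ventricular-like cells. Isl1 had 55.3 and 65.7 CPM in atrial-like against 0 and 109 CPM in ventricular-like cells, and Smoc2, a matrix protein gene, 31.6 and 124 CPM in atrial-like against 119.9 and 120.1 CPM in ventricular-like cells. The replicate 1 ventricular-like class held 25012 UMIs, where 3 counts are 119.9 CPM, so 0 UMIs there allow a level of up to that. Podxl (158 and 157 CPM in atrial-like against 119.9 and 109 CPM in ventricular-like cells), Rgs6 (19.7 and 30.3 CPM in atrial-like against 40.0 and 10.9 CPM in ventricular-like cells) and Cacna1d (35.5 and 35.4 CPM in atrial-like against 0 and 43.7 CPM in ventricular-like cells) did not pass. Neither did Gjc1 (59.2 and 55.6 CPM in atrial-like against 80.0 and 87.4 CPM in ventricular-like cells) and Tbx3 (19.7 and 32.8 CPM in atrial-like against 159.9 and 43.7 CPM in ventricular-like cells). All 5 had 4 UMIs or fewer in the ventricular-like cells of replicate 1. Tbx18 had 12 UMIs in atrial-like and 0 in ventricular-like cells.

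Among the 12 largest differences upward, Calca had 142 and 101 CPM in atrial-like cells and 0 UMIs in ventricular-like cells, at least 4.55-fold higher (adjusted p = 0.019). The imprinted gene Mest (505 and 467 CPM in atrial-like against 80.0 and 109 CPM in ventricular-like cells; 2.42 ± 0.41, adjusted p = 4.64e-05) was higher with no overlap, and so was H19 (5172 and 5541 CPM in atrial-like against 3918 and 2337 CPM in ventricular-like cells; 1.10 ± 0.16, adjusted p = 8.03e-07), an imprinted RNA gene. Also higher with no overlap were Herpud1, Pdia3 and Ssr3. Herpud1, of the degradation pathway of the endoplasmic reticulum, had 67.1 and 85.9 CPM in atrial-like and 0 UMIs in ventricular-like cells (at least 3.05-fold). The disulfide isomerase gene Pdia3 had 947 and 652 CPM in atrial-like against 279.9 and 393 CPM in ventricular-like cells (1.11 ± 0.26), and the translocon subunit gene Ssr3 422 and 533 CPM in atrial-like against 399.8 and 175 CPM in ventricular-like cells (1.27 ± 0.30). Their adjusted p-values were 0.0257, 0.0178 and 0.0178. Herpud1 lost its call in 8 of 17 alternatives, Pdia3 in 6 of 18 and Ssr3 in 8 of 18. Hspa5 (1954 and 1924 CPM in atrial-like against 959.5 and 1278 CPM in ventricular-like cells; 0.77 ± 0.19, adjusted p = 0.0278) and Hsp90b1 (2388 and 2349 CPM in atrial-like against 1519 and 1332 CPM in ventricular-like cells; 0.87 ± 0.17, adjusted p = 0.00207), chaperones of the same compartment, also passed. Hspa5 lost its call in 6 of 18 alternatives and Hsp90b1 in 4. They were picked out after their values were seen, and no list of such genes was counted.

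The splicing-related gene Srek1ip1 (111 and 101 CPM in atrial-like cells, 1 UMI in all ventricular-like cells; ratio 12.2, interval 2.12 to 489) was higher too, and lost its call in 9 of 17 alternatives. Osr1, a factor of the posterior field, had 82.9 and 80.8 CPM in atrial-like cells and 0 UMIs in ventricular-like cells, at least 3.17-fold higher. Its adjusted p was 0.0499, and the call was lost in 14 of 18 alternatives, among them the removal of cardiac cells that met another gate.

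Among the 12 largest differences downward, Bmp2, a signal of the atrioventricular canal (chr2:133552159-133562885, plus strand), had 35.5 and 45.5 CPM in atrial-like and 759.6 and 240.3 CPM in ventricular-like cells (-3.01 ± 0.45, adjusted p = 2.21e-06). Rspo3, a Wnt amplifier, had 11.8 and 37.9 CPM in atrial-like against 80.0 and 273 CPM in ventricular-like cells (-2.96 ± 0.56, adjusted p = 0.000639). These 2 were the members of the list for atrioventricular canal and outflow that passed among 14 tested, and none was higher. Hsd3b6, a steroid dehydrogenase gene, had 15.8 and 25.3 CPM in atrial-like against 80.0 and 229 CPM in ventricular-like cells (-3.15 ± 0.65, adjusted p = 0.00317). Its sign turned when the cardiac gate was set at 5% or when ventricular-like cells with an atrial marker UMI were left out. The lipolysis inhibitor gene G0s2 had 11.8 and 58.1 CPM in atrial-like against 40.0 and 328 CPM in ventricular-like cells (-2.46 ± 0.54). The complement inhibitor gene Cd59a had 55.3 and 146 CPM in atrial-like against 80.0 and 688 CPM in ventricular-like cells (-2.10 ± 0.35), and the LIM protein gene Fhl1 47.4 and 131 CPM in atrial-like against 119.9 and 426 CPM in ventricular-like cells (-1.65 ± 0.35). These 3 were lower in atrial-like cells within each library, but their atrial-like value of replicate 2 lay above the ventricular-like value of replicate 1, so the classes overlapped across libraries. The kinetochore gene Cenpw had 90.8 and 70.7 CPM in atrial-like against 279.9 and 273 CPM in ventricular-like cells (-1.63 ± 0.37), with no overlap. The adjusted p-values of these 4 genes were 0.0157 or smaller.

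**Figure D2:**
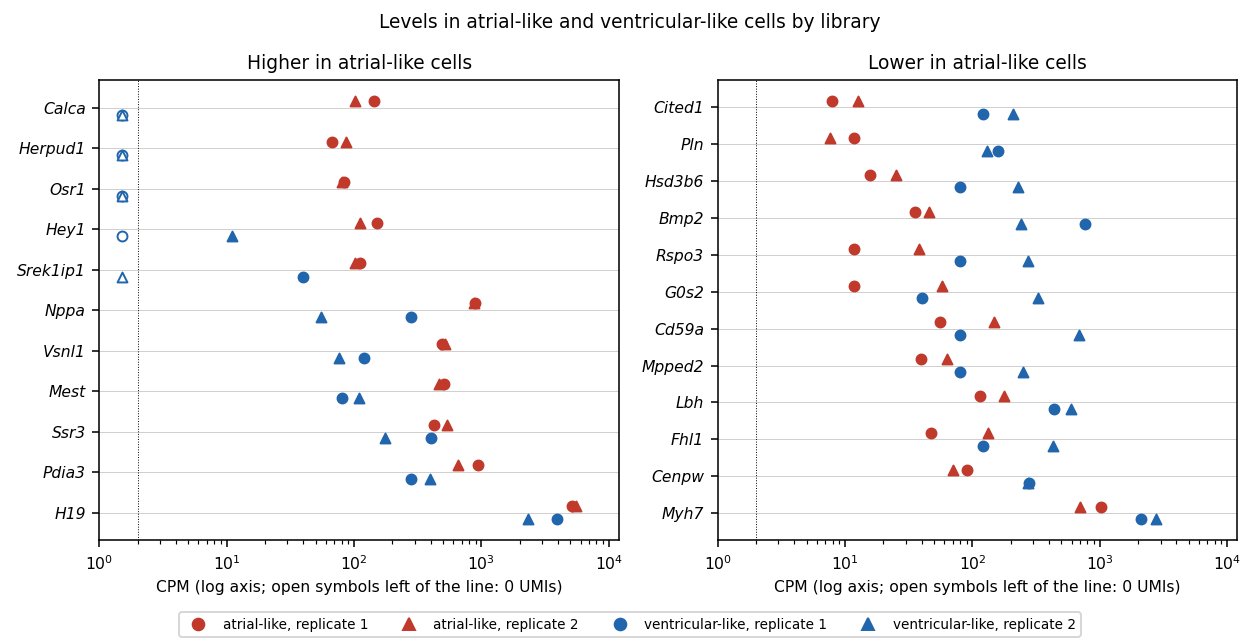
CPM (log axis) of the genes described among the 12 largest differences in each direction, in atrial-like (red) and ventricular-like (blue) cells of replicate 1 (circles) and replicate 2 (triangles); open symbols left of the dotted line had 0 UMIs. Nppa lay at 896 and 876 CPM in atrial-like cells, above 279.9 and 54.6 CPM in ventricular-like cells, and in G0s2, Cd59a and Fhl1 the classes overlap across libraries.

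Sarcomere genes showed both directions. Of 36 tested, 2 were higher and 2 lower. Myh6 (5247 and 2199.6 CPM in atrial-like against 4518 and 1419.7 CPM in ventricular-like cells; 0.65 ± 0.16, adjusted p = 0.0244) and the titin gene Ttn (1212 and 634 CPM in atrial-like against 599.7 and 415 CPM in ventricular-like cells; 0.95 ± 0.24, adjusted p = 0.0499) were the higher ones. The skeletal actin gene Acta1 (304 and 417 CPM in atrial-like against 439.8 and 1278 CPM in ventricular-like cells; -1.18 ± 0.27, adjusted p = 0.0131) and the desmin gene Des (292 and 283 CPM in atrial-like against 719.7 and 601 CPM in ventricular-like cells; -0.98 ± 0.25, adjusted p = 0.0447) were the lower ones. Myh6 overlapped between the classes across libraries (replicate 2 atrial-like lay below replicate 1 ventricular-like) and was higher within each library. Myh6 and Acta1 each kept their call in 13 of 18 alternatives, Ttn in 9 and Des in 6. Both Myh6 and Ttn lost theirs with DESeq2's size factors and with scaling by total UMIs alone. Of the cell cycle genes outside the lists that passed, the inhibitor gene Cdkn1c (572 and 1030.4 CPM in atrial-like against 1279 and 2392 CPM in ventricular-like cells; -1.18 ± 0.22) and the cyclin gene Ccnd2 (201 and 194 CPM in atrial-like against 359.8 and 491 CPM in ventricular-like cells; -1.13 ± 0.29) were lower, both chosen after their values were seen. Ccnd2 kept its call in 9 of 18 alternatives and Cdkn1c in 15. In all, 15 lists with 249 genes tested had no member that passed. They were the venous pole list and 14 others, among them 27 of calcium handling and excitation, 25 cardiac transcription factors, 32 of oxidative phosphorylation, 20 of glycolysis, 14 of fatty acid use, 12 of retinoic acid and 16 of angiopoietin, VEGF, neuregulin and other growth factor signalling. At an unadjusted p under 0.05 they held 27 higher and 14 lower genes by edgeR, and DESeq2 called 0 higher and 2 lower.

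The 145 cells were not alike. Nppa and Shox2, neither of which was used to choose the cells, were mostly found in different ones: 40 cells had Nppa and no Shox2, 47 had Shox2 and no Nppa, 7 had both and 51 had neither. In replicate 1 the counts were 20, 19, 1 and 13 of 53 cells, and in replicate 2 20, 28, 6 and 38 of 92. Most cells lacked each gene, which by itself keeps cells with both few. Nppa was found in 39.6% and 28.3% of the cells and Shox2 in 37.7% and 37.0%. Whether cells with both were fewer than these shares alone would give was not tested. With cells thinned to 1000 UMIs in a separate draw, 1 of 48 and 0 of 76 cells had both, against 17 and 19 with Nppa alone and 9 and 15 with Shox2 alone. Cells with Nppa had a median of 6 Nppa UMIs in each replicate, while cells with Shox2 had a median of 2 Shox2 UMIs. In replicate 1 the 20 cells with Shox2 held 1 of the 227 Nppa UMIs. In replicate 2 the 34 cells with Shox2 held 113 of 347, of which 56 lay in a single cell, so the separation was weaker there. Median depths were 2349 and 4610.5 UMIs in cells with Nppa, 2922 and 3486.5 in cells with Shox2, and 1310 and 2256 in cells with neither, so an undetected transcript in the last group says little. The 27 cells admitted by an Nr2f gene alone held 3 and 3 Nppa UMIs (104 and 100.2 CPM), against 998 and 939.8 CPM in the other 41 and 77 cells. The 19 cells that also met the SHF gate held 24 Nppa UMIs in replicate 1 and 0 in replicate 2.

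**Figure D3:**
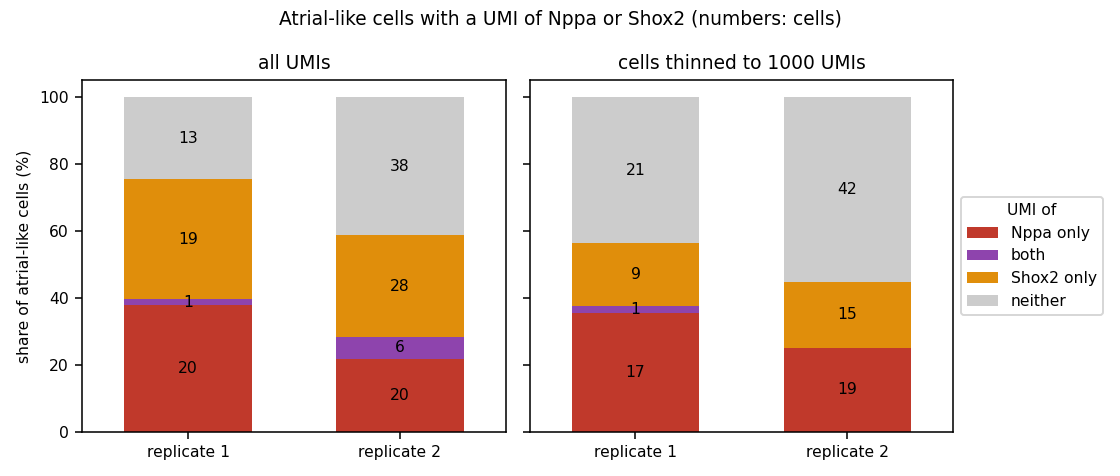
Share of atrial-like cells (vertical axis, %) with a UMI of Nppa only, of both genes, of Shox2 only or of neither, for replicates 1 and 2, with all UMIs (left) and with each cell thinned to 1000 UMIs (right); numbers in the bars are cells. Cells with both genes were 1 of 53 and 6 of 92 with all UMIs, and 1 of 48 and 0 of 76 after thinning.

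Cells with Shox2 carried less of most sarcomere genes. Of the 36 sarcomere genes with at least 10 UMIs in atrial-like cells, 30 were lower in cells with Shox2 in both libraries and 2 higher, against 23.9% lower and 30.4% higher of 7104 such genes in all. Of 12 other venous pole genes, 10 had 10 UMIs, of which 7 were higher in both libraries (Bmp4, Cacna1d, Hcn4, Isl1, Rgs6, Smoc2 and Tbx3) and 1 lower (Gjc1). Tbx18 had 0 and 11 UMIs in cells with Shox2, against 1 and 0 in cells without it. These values describe a split made after Nppa and Shox2 had been seen and carry no test; the groups held 20 and 34 cells with Shox2 and 33 and 58 without. Myl3 had 176 and 657 CPM in cells with Shox2, against 3405 and 2782 CPM in cells without it. Nppa itself had 1 UMI in cells with Shox2 of replicate 1 and 594 CPM in those of replicate 2, against 1391 and 1138 CPM in cells without it. Myh6 had 3004 and 1597 CPM in cells with Shox2, against 6502 and 2758 CPM in cells without it. All 3 muscle genes were thus lower in cells with Shox2 in both libraries. Hcn4 had 187 and 152 CPM in cells with Shox2, against 49.3 and 43.8 CPM in cells without it. Bmp4 had 209 and 309.9 CPM in cells with Shox2, against 24.6 and 122 CPM in cells without it, and Smoc2 88.0 and 252 CPM in cells with Shox2, against 0 and 4.86 CPM in cells without it. These 3, the other way round, were higher with Shox2 in both libraries. Isl1, the progenitor factor, had 99.0 and 84.1 CPM in cells with Shox2, against 30.8 and 48.6 CPM in cells without it. Of the 5 gate markers, Angpt1 showed no common direction (572 and 856 CPM in cells with Shox2, against 831 and 593 CPM in cells without it). Nr2f2 had 341 and 378 CPM in cells with Shox2, against 320.2 and 277 CPM in cells without it.

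Of 4028 genes with at least 30 UMIs in atrial-like cells, 14 were at least 3-fold higher in cells with Shox2 in both libraries (counts below 3 set to 3) and 7 at least 3-fold lower, again without a test. The higher ones, beside Hcn4 and Smoc2, included Dsc2, Flrt3, Jun, Kitl, Lgals1, Lxn, Nrk, Ppfibp1, Tagln2, Tenm4 and Thbd. Of these, Kitl, the ligand of the Kit receptor, had 121 and 116 CPM in cells with Shox2, against 6.16 and 24.3 CPM in cells without it. The cell adhesion gene Flrt3 had 88.0 and 158 CPM in cells with Shox2, against 24.6 and 19.5 CPM in cells without it. The lower ones, beside Myl3, were Actn2, Arhgap29, Atcayos, Col2a1, Mylk3 and Tnnt1. Tnnt1, the slow skeletal troponin T gene, had 33.0 and 42.0 CPM in cells with Shox2, against 419 and 297 CPM in cells without it. Mylk3, the cardiac myosin light chain kinase gene, had 121 and 105 CPM in cells with Shox2, against 425 and 331 CPM in cells without it. The collagen gene Col2a1 had 55.0 and 126 CPM in cells with Shox2, against 308 and 539.8 CPM in cells without it.

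The same genes were graded by how much of a cell's RNA came from the 6 cardiac gating genes. Cells were placed in 3 bins, with 2% to 4% (17 and 28 cells in replicates 1 and 2), 4% to 7% (23 and 32) and over 7% (13 and 32) of their UMIs from those genes. The bins use the gate, and the values carry no test. From the lowest bin to the highest, Nppa stood at 13.7, 897 and 2312 CPM in replicate 1 and at 0, 968 and 1705 CPM in replicate 2. The lowest bin thus held 1 of all 574 Nppa UMIs. Myl3 stood at 123, 3003 and 3412 CPM and at 184, 1693 and 3525 CPM, and Cox6a2, a muscle cytochrome oxidase subunit gene, at 27.4, 304 and 616 CPM and 23.0, 118 and 369 CPM. These 3 rose from bin to bin in both replicates. Shox2 ran the other way, at 616, 119 and 0 CPM and 514, 195 and 115 CPM. Hcn4 had 164, 81.6 and 44.0 CPM and 130.3, 125 and 24.6 CPM, and Smoc2 54.8, 29.7 and 0 CPM and 368, 6.97 and 0 CPM, with 52 of its 57 UMIs in the lowest bin. Of 22 genes of G2 and M phase with at least 10 UMIs, 19 were lowest in the highest bin in both replicates, as were 7 of 21 of S phase and 3 of 7 heterochronic genes, against 19.4% of 7104 such genes in all. Hmga2, an embryonic chromatin gene known for timing development, had 383, 178 and 66.0 CPM and 207, 265 and 82.0 CPM, and Top2a, a topoisomerase of dividing cells, 685, 564 and 44.0 CPM and 414, 334 and 131 CPM. Not every cardiac gene was graded: Ttn stood at 1671, 1142 and 682 CPM in replicate 1 and at 376, 1010.3 and 467 CPM in replicate 2, and Vsnl1 at 356, 564 and 484 CPM and 598, 523 and 426 CPM. Tbx18 had 12 UMIs, all in the lowest bin. Median depths of the bins lay between 1972 and 2927.5 UMIs.

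**Figure D4:**
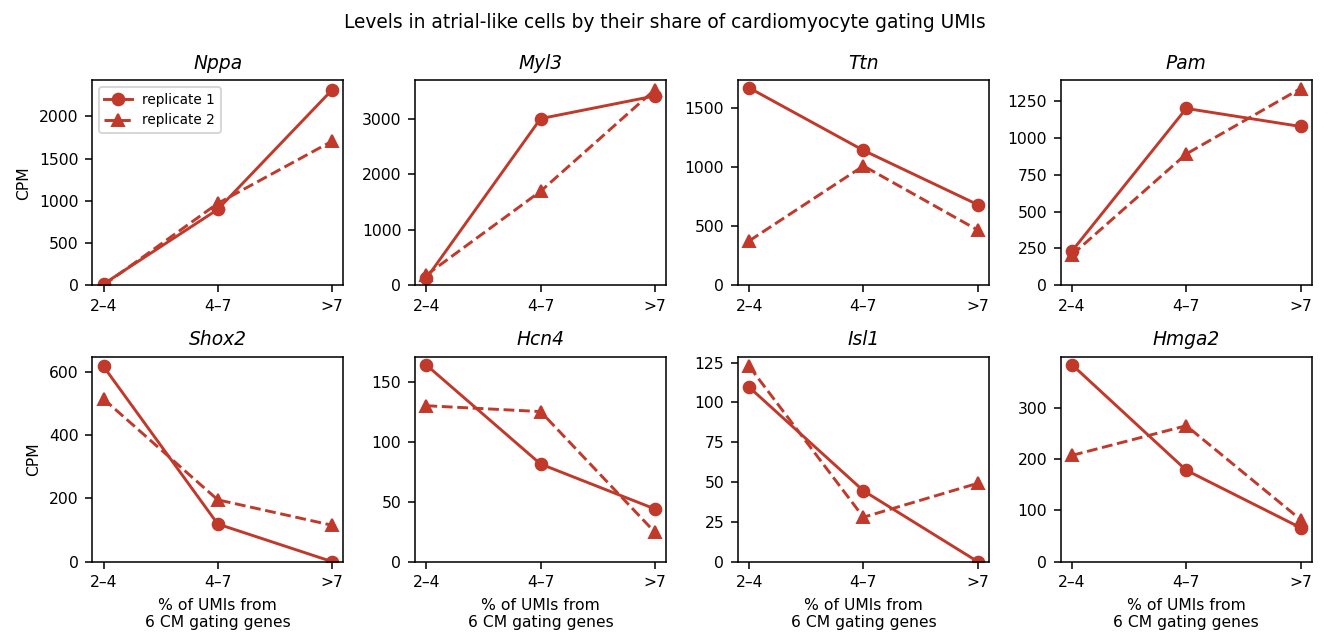
CPM of 8 genes (vertical axes from 0) in atrial-like cells binned by the percentage of their UMIs from the 6 cardiac gating genes, in replicate 1 (circles, solid) and replicate 2 (triangles, dashed). Nppa, Myl3 and Pam are lowest in the first bin in both replicates, Shox2 is highest there (616 and 514 CPM), and Ttn takes a different course in each replicate.

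The 57 unmarked cells of the cardiac gate, described without a test because they were shallower by construction, did not share the atrial-like Nppa level. Nppa had 207 and 44.5 CPM there, against 896 and 876 CPM in atrial-like and 279.9 and 54.6 CPM in ventricular-like cells. Myh7 stood at 1727 and 1646 CPM in unmarked cells, above both atrial-like values (1026 and 705 CPM) and below both ventricular-like values (2119 and 2752 CPM). With 14479 and 67438 UMIs in all, 3 counts were 207 CPM in the replicate 1 unmarked cells.

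The second comparison set the atrial-like cells against SHF-gated cells, which were chosen by Isl1, Osr1 and Foxf1. Cells that met the cardiac gate or another marker gate had been set aside first. The atrial-like class was not cleared of cells that met another gate. The series concerns networks under Hedgehog control in second heart field progenitors. Atrial-like cells carried more sarcomere, calcium handling, mitochondrial and fatty acid transcripts, and less of the cell cycle, Hedgehog, retinoic acid synthesis and developmental timing transcripts. Of 10872 genes tested, 1274 were higher (11.7%) and 1459 lower (13.4%) at the same threshold in the same edgeR fit. The cardiac gate separates these classes by construction, so the rise of muscle genes that travel with the gating genes is a description and supports nothing on its own. The SHF gate used Isl1, Osr1 and Foxf1, and the Hedgehog list holds Foxf1. Lower levels of genes that travel with these gating genes are likewise partly set by the choice and are a description. With DESeq2's size factors the split was 1509 higher and 1112 lower. With DESeq2's Wald test it was 1345 and 843, and without the library as a block 766 and 495. The median log2 fold change of all genes was -0.13 with TMM scaling and -0.01 with DESeq2's size factors.

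Among the largest differences upward were the small heat shock protein genes Hspb2 (355 and 349 CPM in atrial-like cells) and Hspb3 (71.1 and 124 CPM), the muscle cytoskeleton gene Fsd2 (193 and 131 CPM) and the calcium buffer gene Pvalb (103 and 116 CPM), each with 0 UMIs in SHF-gated cells. They were at least 336, 98.9, 149 and 106-fold higher. Hspb2 overlaps Cryab on the other strand, with the same limit. Nppa had 574 UMIs in atrial-like against 3 in SHF-gated cells, which is 847 times as much per UMI (exact 95% counting interval 288 to 4119), Cox6a2 136 against 1 (602, interval 106 to 23949.8) and the muscle ubiquitin ligase subunit gene Asb2 204 against 2 (451, interval 123 to 3753). Myl3 stood at 2246 and 1760.2 CPM in atrial-like against 3.87 and 3.03 CPM in SHF-gated cells (log2 fold change 9.21 ± 0.23). The adjusted p-values of these 8 genes were 5.57e-16 or smaller.

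Among the largest differences downward, 5 genes had 0 UMIs in all 145 atrial-like cells. In SHF-gated cells these were the chemokine gene Cxcl13 at 182 and 159.6 CPM, the patterning genes Hoxb1 at 91.5 and 95.3 CPM and Nkx6-1 at 92.1 and 63.5 CPM, the pharyngeal muscle factor gene Msc at 61.9 and 44.6 CPM and the collagen gene Col26a1 at 41.9 and 58.2 CPM. They were at least 37.2, 20.2, 17.1, 11.7 and 10.7-fold lower in atrial-like cells. Cdca7l (1 UMI in atrial-like cells, 79.9 and 62.8 CPM in SHF-gated cells), Tshz2 (2 UMIs in atrial-like cells, 121 and 69.6 CPM in SHF-gated cells) and the interferon-induced membrane protein gene Ifitm1 (3 UMIs in atrial-like cells, 109.5 and 103 CPM in SHF-gated cells) were the other 3. SHF-gated cells exceeded atrial-like cells in these by ratios of 46.8 (interval 8.30 to 1856), 31.6 (8.67 to 262) and 23.0 (7.81 to 112). The adjusted p-values of the 8 were 2.04e-07 or smaller. Of the marker lists of other cell types, 2 of 9 endothelial, 2 of 6 foregut endoderm and 2 of 6 epicardial genes were higher in atrial-like than in SHF-gated cells. Of the epicardial genes 2 were lower, and of 6 mesenchymal genes 5. SHF-gated cells had to fail the endothelial, epithelial and epicardial gates, which use some of these markers, while atrial-like cells did not. Higher levels of such markers are thus partly set by the order of the gates and are a description. The part of such cells in these differences was not tested.

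Of the 10 tested members of the venous pole list 6 were higher in atrial-like cells and none lower, with a median log2 fold change of 1.35 against -0.13 over all genes. Shox2 had 241 and 275 CPM in atrial-like and 39.3 and 15.9 CPM in SHF-gated cells (3.36 ± 0.25, adjusted p = 1.34e-22), and Hcn4 98.7 and 96.0 CPM in atrial-like against 16.1 and 7.56 CPM in SHF-gated cells (3.19 ± 0.40, adjusted p = 9.97e-11). Podxl, a sialomucin gene, had 158 and 157 CPM in atrial-like against 47.7 and 69.6 CPM in SHF-gated cells (1.51 ± 0.22). The calcium channel gene Cacna1d had 35.5 and 35.4 CPM in atrial-like against 6.44 and 5.29 CPM in SHF-gated cells (2.62 ± 0.61), and the G protein regulator gene Rgs6 17 UMIs in atrial-like against 2 in SHF-gated cells, a ratio of 37.6 (interval 8.93 to 336). Smoc2 passed (31.6 and 124 CPM in atrial-like against 49.6 and 33.3 CPM in SHF-gated cells; 1.18 ± 0.31, adjusted p = 0.00178) on replicate 2 alone. In replicate 1 it was lower in atrial-like cells, and with the cardiac gate at 5% it was lower as a whole.

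Of 16 tested atrial genes, 15 were higher and none lower than in SHF-gated cells, and 1 did not pass. Tbx5 differed least of those that did, at 166 and 207 CPM in atrial-like against 157 and 99.1 CPM in SHF-gated cells (0.70 ± 0.20, adjusted p = 0.00436). Of 16 tested ventricular genes 7 were higher and 3 lower, the lower ones being Gja1 (19.7 and 37.9 CPM in atrial-like against 132 and 166 CPM in SHF-gated cells), Irx3 (23.7 and 0 CPM in atrial-like against 32.2 and 49.2 CPM in SHF-gated cells) and Hand1 (3.95 and 10.1 CPM in atrial-like against 9.02 and 54.5 CPM in SHF-gated cells). Of 36 tested sarcomere genes 34 were higher and none lower. The same held for 23 of 27 genes of calcium handling and excitation, led by the sodium pump subunit gene Atp1b1 (979 and 803 CPM in atrial-like against 121 and 56.0 CPM in SHF-gated cells) and the calcium store gene Casq1 (268 and 386 CPM in atrial-like against 2.58 and 3.78 CPM in SHF-gated cells).

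Of the energy genes, 27 of 32 tested genes of oxidative phosphorylation, 11 of 14 of fatty acid use and 10 of 20 of glycolysis were higher, with none lower in any of the 3 lists. The mitochondrial ADP/ATP carrier gene Slc25a4 had 3877 and 4344 CPM in atrial-like and 1213 and 1386 CPM in SHF-gated cells (1.75 ± 0.11, adjusted p = 3.4e-28). The fatty acid binding protein gene Fabp3 had 233 and 232 CPM in atrial-like against 6.44 and 9.83 CPM in SHF-gated cells (4.91 ± 0.35), and the phosphofructokinase gene Pfkp 241 and 182 CPM in atrial-like against 4.51 and 5.29 CPM in SHF-gated cells (5.49 ± 0.36). The list for angiopoietin, VEGF and neuregulin signalling also holds other growth factor genes, such as Igf2 and Pdgfa. Of its 16 tested genes 6 were higher and none lower. They were led by Igf2 (2511 and 2699.7 CPM in atrial-like against 1066 and 1182 CPM in SHF-gated cells; 1.30 ± 0.11) and the neuregulin receptor gene Erbb4 (103 and 35.4 CPM in atrial-like against 5.80 and 1.51 CPM in SHF-gated cells; 4.22 ± 0.58).

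Cell cycle genes were lower: 16 of 21 tested genes of S phase and 21 of 22 of G2 and M phase, with none higher. Rrm2, a ribonucleotide reductase subunit gene, had 90.8 and 149 CPM in atrial-like and 438 and 469 CPM in SHF-gated cells (-1.79 ± 0.18, adjusted p = 1.4e-14). Cenpe, a mitotic motor gene, had 82.9 and 78.3 CPM in atrial-like against 443 and 215 CPM in SHF-gated cells (-1.83 ± 0.22, adjusted p = 8.36e-12). Median depths were 4063 and 2773.5 UMIs in SHF-gated cells of replicates 1 and 2, against 2349 and 2672.5 in atrial-like cells. With cells thinned to 1000 UMIs, Cenpe lost its call and Rrm2 kept it. Of 8 tested Hedgehog targets and receptors, a list that also holds the gating gene Foxf1, 6 were lower and none higher. Among them were the receptor gene Ptch1 (35.5 and 20.2 CPM in atrial-like against 98.6 and 69.6 CPM in SHF-gated cells; -1.56 ± 0.35) and the effector gene Gli1 (3 UMIs in atrial-like cells, 32.2 and 46.1 CPM in SHF-gated cells; adjusted p = 0.000346). Of 8 heterochronic genes, which time development, 6 were lower and none higher. They were led by Hmga2 (217 and 189 CPM in atrial-like against 755 and 644 CPM in SHF-gated cells; -1.68 ± 0.17, adjusted p = 2.79e-15) and Lin28b (7.90 and 15.2 CPM in atrial-like against 121 and 79.4 CPM in SHF-gated cells; -2.88 ± 0.41). Of 12 retinoic acid genes 4 were lower, among them Aldh1a2, the enzyme that makes retinoic acid (7.90 and 5.05 CPM in atrial-like against 129 and 153 CPM in SHF-gated cells; -4.38 ± 0.47). Rbp4 alone was higher, through replicate 2 alone (0 and 101 CPM in atrial-like against 6.44 and 10.6 CPM in SHF-gated cells).

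Cardiac transcription factors split, with 9 of 25 higher and 10 lower. The higher ones included Nkx2-5 (497 and 606 CPM in atrial-like against 43.2 and 71.1 CPM in SHF-gated cells; 3.36 ± 0.18), Mef2c (418 and 361 CPM in atrial-like against 69.6 and 86.2 CPM in SHF-gated cells; 2.41 ± 0.19) and Hopx (296 and 141 CPM in atrial-like against 3.87 and 8.32 CPM in SHF-gated cells; 5.16 ± 0.40). The lower ones included Meis2 (107 and 93.4 CPM in atrial-like against 316 and 265 CPM in SHF-gated cells; -1.47 ± 0.21) and Hoxb4 (3.95 and 15.2 CPM in atrial-like against 95.4 and 75.6 CPM in SHF-gated cells; -2.81 ± 0.44). Of 21 tested BMP, TGF-beta and Wnt genes 4 were higher, among them Bmp7 (98.7 and 109 CPM in atrial-like against 23.8 and 40.1 CPM in SHF-gated cells), and 7 lower, among them Id3 (209 and 364 CPM in atrial-like against 688 and 1025 CPM in SHF-gated cells). Of 7 Notch genes 1 was higher, the ligand gene Jag1 (82.9 and 70.7 CPM in atrial-like against 43.2 and 45.4 CPM in SHF-gated cells), and 3 were lower. Of 14 genes of the atrioventricular canal and outflow 4 were higher, among them Wnt2, a posterior field ligand (169.8 and 328 CPM in atrial-like against 122 and 94.5 CPM in SHF-gated cells; 1.39 ± 0.20), and 2 were lower. No gene of natriuretic peptide processing passed among 4 tested by edgeR or DESeq2 (1 higher and 1 lower at an unadjusted p under 0.05).

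**Figure D5:**
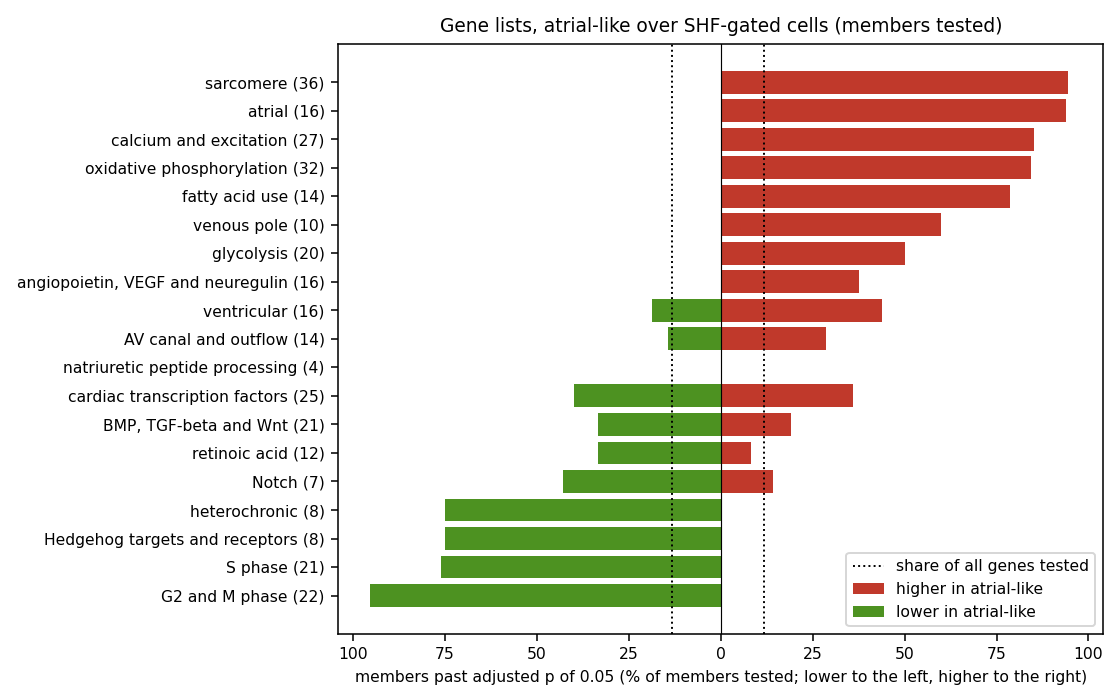
Share of each gene list's tested members (number in brackets) that were higher (red, right) or lower (green, left) in atrial-like than in SHF-gated cells at an adjusted p of 0.05; dotted lines mark the shares of all genes tested, 11.7% higher and 13.4% lower. Sarcomere and atrial genes lie at the top (34 of 36 and 15 of 16 higher) and G2 and M phase genes at the bottom (21 of 22 lower).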

How the data were processed

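2 libraries of 1 group were analysed, biological replicates made on different days per the labels. Per the labels' protocols each came from a pool of microdissected tissue. The deposited values were UMI counts per gene and cell barcode, whole numbers that the authors had not normalized, judging by the values. Scanpy and mm10 are named without versions or roles in the submitters' processing notes. Not given in the sources used here are the aligner, the counter, its use of strand and the barcode selection. Replicates 1 and 2 held 5000 and 7497 barcodes with 11958912 and 14131384 UMIs, and their gene totals differed beyond counting error (18991 genes; chi-square per degree of freedom 22.96).

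Kept cells were put by ordered gates into 11 classes, and UMI counts were summed per class and library (22 sums). The sums were tested with edgeR 4.0.16 in R 4.3.3 (quasi-likelihood F test, TMM scaling, filterByExpr, library as a block, 10 residual degrees of freedom), with Benjamini-Hochberg adjustment over all genes tested. The 12 gating genes were left out, with Isl1, Osr1 and Foxf1 also left out against SHF-gated cells. Standard errors are the log2 fold change over the root of F and are approximate. The pairing of classes by library comes from the design, since both classes of a library share its embryos and day. The libraries' differences correlated between the atrial-like and ventricular-like classes (r = 0.309) and between the atrial-like and SHF-gated classes (r = 0.557), across 2370 genes, which are not independent replicates. The fit was tested on simulated counts. Alternatives included DESeq2 1.42.0. Intervals and floors of 3 counts cover counting error only, and 95% intervals of shares are exact binomial.

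The members and the 28 gene lists were chosen with earlier results of these data known. Genes were named by rule: the 12 largest changes in each direction against ventricular-like cells and the 8 largest against SHF-gated cells (an adjusted p below 0.05, both libraries alike in sign, at least 50 CPM in the higher class, no unnamed, mitochondrial or ribosomal protein genes), members of the atrial, ventricular and venous pole lists with at least 20 CPM, and up to 4 genes of each other list by p. A few genes that the rules name are not reported here. Genes outside the rule are said to be chosen after their values were seen or stand in an untested description. Symbols, coordinates and overlaps come from GENCODE M21 on GRCm38 (99.7% of 52550 identifiers matched without version, 93.3% with it), and promoters from RefSeq GRCm38.p6.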

Additional observations from a re-analysis of the deposited data

How the results depend on the processing

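Against ventricular-like cells, where 18 genes were higher and 22 lower, the counts of higher genes that moved by more than 1.5 times were 29 with the cardiac gate at 5% of UMIs, 10 with cardiac cells that met another gate removed, 10 with DESeq2's size factors, 2 with DESeq2's Wald test and 38 with no filter on low counts. The counts of lower genes that moved were 11 with the 5% gate, 14 with ventricular-like cells that carried an atrial marker left out, 2 with cells thinned to 1000 UMIs (2719 genes tested), 8 with gates and test on separate parts of the UMIs, split at random (7549 genes tested) and 14 with DESeq2's Wald test. Of the 40 genes called, 9 kept their call with DESeq2's Wald test and 19 with the 5% gate, and none was called in the other direction under any of the 18 alternatives. Against SHF-gated cells, where 1274 were higher and 1459 lower, the counts that moved were 242 higher and 125 lower after thinning (2716 genes tested), 672 higher on separate parts (7546 genes tested), 843 lower with DESeq2's Wald test and 713 lower with only the cardiac and SHF classes in the fit (4864 genes tested). Without the replicate block, which the design supplies because classes share a library's embryos and day, the counts were 1 higher and 1 lower against ventricular-like cells, and 766 higher and 495 lower against SHF-gated cells. Of the 2733 genes called against SHF-gated cells, 1227 could be tested after thinning. There 347 kept their call and 62 had the other sign, none of them called. Apart from thinning, separate parts and the smaller fit, which test fewer genes, the cause was not tested.

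The sign of Hsd3b6 against ventricular-like cells turned with the 5% gate (log2 fold change 0.49, adjusted p = 0.984) and with ventricular-like cells that carried an atrial marker left out (7.37, adjusted p = 0.727), over a range of adjusted p from 6.41e-05 to 0.984. Against SHF-gated cells, Smoc2 turned with the 5% gate (-2.14) and without replicate 2 (-0.65, against 1.89 without replicate 1), and Rbp4 with the 5% gate (-1.46), after thinning (-5.64) and with cardiac cells that met another gate removed (-1.57). The edgeR and DESeq2 adjusted p-values here are Benjamini-Hochberg values over all genes tested. For the genes the text names, 1541 of the refits against ventricular-like cells and 1511 of those against SHF-gated cells kept their side of the threshold. Of the others, 166 and 51 lost the call and 11 and 4 gained it. Genes called in the main fit also kept their direction in these refits. For genes not called in either fit the direction was not compared.

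The atrial-like share of kept cells, a mean of 1.59%, was 2.24% with at least 800 genes per cell and 0.982% with the 5% gate, and ran from 1.31% to 1.86% when either library was left out. Leaving out a library leaves no residual degrees of freedom, so it gave fold changes of named genes but no test or count. The added alternatives, chosen after seeing the data, were the removal of cardiac cells that met another gate and of the hepatoblast-gated class. The 29 ventricular-like cells limit the first comparison.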
